A study of Mus musculus with 8 samples.

Results

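The spliceosome and SR protein genes were taken as the protein-coding genes of GENCODE release M21 (mm10) whose symbols begin with Srsf, Sf3a, Sf3b, Prpf, Snrp (followed by a letter from a to g or a digit) or Lsm and a digit. The rule gave 57 of 21951 protein-coding genes, of which 11 were Srsf, 9 Sf3, 13 Prpf, 11 Snrp and 13 Lsm genes. All groups were E14 mouse embryonic stem cells grown in serum with LIF. E14 itself was wild-type (3 libraries), and A1 (2 libraries) and C7 (3 libraries) were Pwwp2a/b DKO clones, each a single clone lacking both genes. PWWP2A and PWWP2B read H3K36me3, a histone mark of transcribed gene bodies, within a histone deacetylase complex. The study asked where transcription starts in their absence.

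CAGE-seq of nuclear RNA maps transcription start sites (TSSs) by capturing capped 5′ ends. The deposited values were positions of tag clusters, each a group of neighbouring TSSs on the same strand. E14 had 32857 clusters, A1 33005 and C7 32870. Biological replicates had been merged, so there was 1 set of clusters per line and no test between lines was possible. No cluster carried a score other than 0, so the depth behind a cluster and the expression of a gene were unknown. Of the 9 embryonic stem cell markers, 9 had a promoter cluster in every line, against 0 of 3 trophoblast markers, 1 of 3 endoderm, 3 of 4 neural and 3 of 4 fibroblast markers. Pwwp2a had 1 promoter cluster in each line, the DKO clones included, and Pwwp2b had no cluster in any, so cluster positions did not show the knockout. How much of Pwwp2a each allele still carries was not analysed here.

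The spliceosome removes introns with small nuclear ribonucleoproteins (snRNPs), each built on a ring of Sm or LSM proteins. SF3a and SF3b belong to the U2 snRNP and recognise the branch site, and many PRPF proteins belong to the U4/U6.U5 tri-snRNP or act on it. SR proteins bind exonic enhancers and recruit this machinery. Their own genes are known for alternative exons and retained introns that send transcripts to nonsense-mediated decay and so hold SR protein levels in check.

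In E14, 56 of the 57 genes had at least 1 cluster between 500 bp before the gene start and the gene end, and the same count held in A1 and C7. The exception was Srsf12, which had no cluster in any line. The 56 genes held 167 clusters in the wild-type line, 169 in clone A1 and 170 in clone C7. By the dominant TSS, the most used base of a cluster, 73 of the 167 lay within 500 bp of the gene start, 26 lay further away but within 500 bp of another annotated transcript start (alternative starts), 59 were exonic and 9 intronic.

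The families differed in the number of clusters. The 10 Srsf genes with a cluster held 61 (6.10 per gene), the 13 Prpf genes 47 (3.62), the 13 Lsm genes 25 (1.92), the 9 Sf3 genes 17 (1.89) and the 11 Snrp genes 17 (1.55). All protein-coding genes with a cluster averaged 2.20. The Snrp and Lsm genes, which encode the small ring proteins and their snRNP partners, and the Sf3 genes sat below that average, and the Prpf and Srsf genes above it. The order was not that of gene length, which had a median of 7228 bp for the Srsf genes, 22634 bp for the Prpf genes and 17403 bp for all protein-coding genes.

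**Figure D1:**
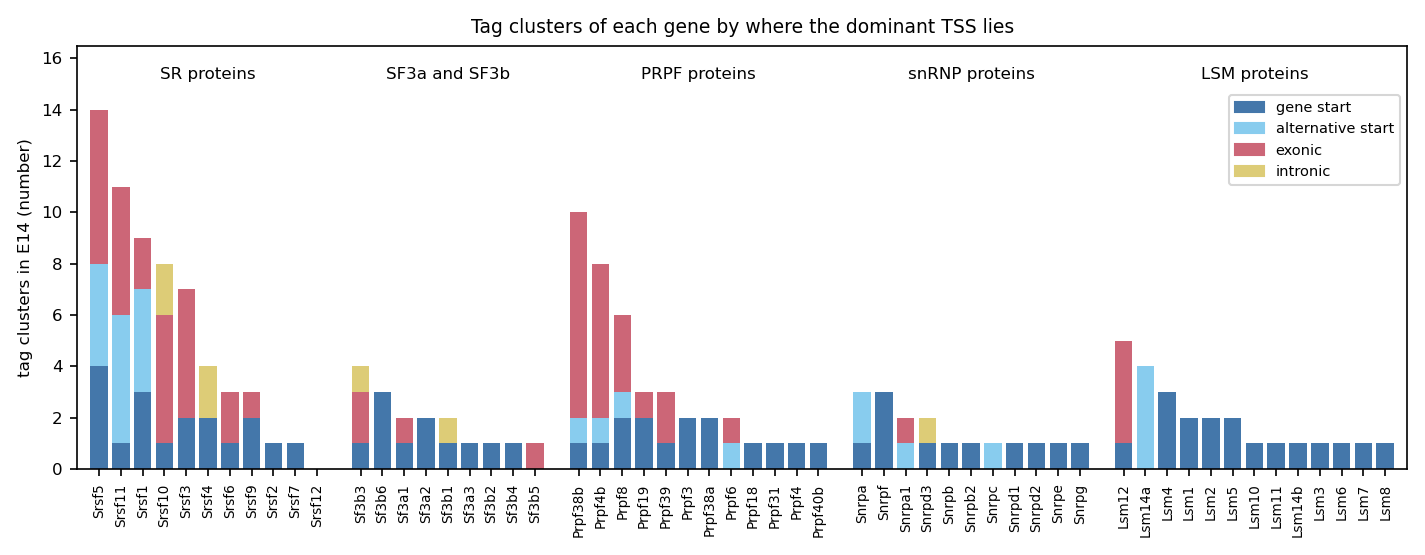
Stacked bars give the number of tag clusters of each gene shown in E14, coloured by where the dominant TSS lies, with genes ordered by number within each family. Srsf5 (14), Srsf11 (11) and Prpf38b (10) are the tallest bars, while most Snrp and Lsm genes have a single cluster at the gene start.

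The SR proteins Srsf2, Srsf3, Srsf6 and Srsf7 had narrower main gene-start clusters than any other member. The main cluster of a gene was defined as the widest within 500 bp of its start in each line, which was the cluster of E14 in every case but Prpf19 in A1, and its width as the interquantile width, which spans from the 0.1 to the 0.9 quantile of the tag signal. It was 4 bp in Srsf6 and Srsf7 and 5 bp in Srsf2 and Srsf3, and each of these values was the same in E14, A1 and C7. No other main cluster was at or below 10 bp. The next was that of Prpf39, which encodes a U1 snRNP-associated factor, at 12 bp in each line. The widest cluster need not be the most used, since tag counts were unknown. Srsf5, for example, also had a 4 bp cluster at 30 bp, beside its main cluster of 31 bp. Main clusters of at most 10 bp were found in 4 of 51 members (7.84%; 95% Wilson interval 3.09% to 18.5%, which covers counting error only), beside 15.0% of 9863 protein-coding genes.

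Each of these genes had a gene-start cluster with TATA just upstream. The sequences below run from 40 bases before to 14 bases after the dominant TSS of E14, on the gene's strand, from RefSeq promoters (GRCm38.p6), and are shown because they are the member starts with TATA in this window. The TATA and the dominant TSS are in capitals. The windows are chr11:116853076-116853130 for Srsf2 (minus strand), chr17:29032633-29032687 for Srsf3 (plus), chr2:162931488-162931542 for Srsf6 (plus) and chr17:80207291-80207345 for Srsf7 (minus).
Srsf2: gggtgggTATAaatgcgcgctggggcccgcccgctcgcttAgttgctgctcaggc
Srsf3: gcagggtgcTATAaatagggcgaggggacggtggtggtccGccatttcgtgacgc
Srsf6: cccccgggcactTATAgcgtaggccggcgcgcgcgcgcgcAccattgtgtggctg
Srsf7: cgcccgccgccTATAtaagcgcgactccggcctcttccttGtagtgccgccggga

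The first T of the TATA lay 33 bases before the TSS in Srsf2, 31 in Srsf3, 29 in Srsf7 and 28 in Srsf6. Srsf2, which encodes SC35, and Srsf3 share the longer TATAAAT as printed. In Srsf3 the TATA belonged to the first of its pair of gene-start clusters, 45 bp from the gene start, which was 1 bp wide in E14 and 2 bp in A1 and C7. Its main cluster of 5 bp lay at 201 bp.

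Across the gene-start clusters of all members, TATA was found from 40 to 20 bases before the dominant TSS in 4 of the 67 with sequence, all of them in Srsf genes, beside 3.54% of 11426 gene-start clusters of protein-coding genes. Of the 13 member clusters of at most 10 bp, 4 had it (30.8%, 12.7% to 57.6%), beside 9.94% of the 3130 such clusters of protein-coding genes with sequence. These 3130 were 78.9% of such clusters, and the share in the rest is unknown. Of the 54 wider member clusters with sequence 0 had it (0%, up to 6.64%), beside 1.13% of 8296 in protein-coding genes. The other sharp clusters without TATA in that window included those of Srsf5 at 30 bp (4 bp wide), Srsf4 at -92 bp (2 bp) and Srsf1 at 441 bp (8 bp). TATA reads the same on both strands, and over the whole RefSeq promoter of 300 bases it was in 15.5% of 58 member promoters and in 31.1% of 20150 promoters of protein-coding genes.

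**Figure D2:**
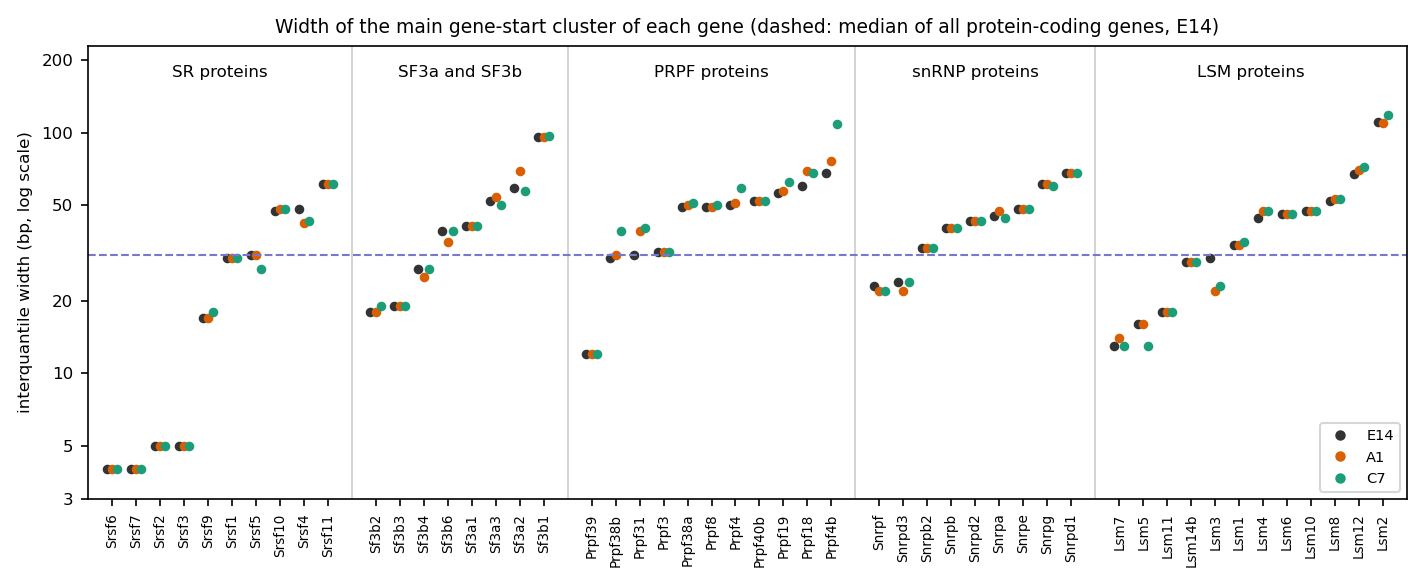
Points give the interquantile width (bp, log scale) of the main gene-start cluster of each gene shown in E14, A1 and C7, ordered by E14 width within each family. The dashed line is the E14 median of all protein-coding genes, 31 bp, and the 4 Srsf genes at 4 to 5 bp lie apart from all others.

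By main cluster, the other members were broader. The median main cluster was 41 bp wide over the 51 members that had one, beside 31 bp over protein-coding genes. By family it was 23.5 bp for Srsf, 39 bp for Lsm, 40 bp for Sf3, 43 bp for Snrp and 49.5 bp for Prpf. The widest was that of Lsm2, a subunit of the ring that binds U6 snRNA, at 111 bp in E14, 110 bp in A1 and 118 bp in C7. Other wide clusters were those of Sf3b1, which holds the branch site (96, 96 and 97 bp), Prpf4b, a kinase that acts on the tri-snRNP (68, 76 and 108 bp), and Snrpd1, an Sm ring protein (68 bp in each line). Among the Srsf genes, Srsf11 (61 bp), Srsf4 (48 bp) and Srsf10 (47 bp) were as broad in E14 as most spliceosome genes. Srsf5 had 31 bp, Srsf1 30 bp and Srsf9 17 bp.

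Several member promoters held CCGGAAG, a form of the site that ETS factors bind. It was searched on both strands, where it reads CTTCCGG on the other, in the 300-base RefSeq promoters, which matched 48 of the 57 members. It was in 22 of 58 member promoters (37.9%) and in 35.6% of 45 promoters of proteasome subunits, another housekeeping complex. In hnRNP genes it was in 4 of 27 promoters (14.8%), and over protein-coding genes in 11.9%. CCAAT was in 39.7% of member promoters and 37.8% of the promoters of protein-coding genes, and GGGCGG in 67.2% and 47.8%. The shares over protein-coding genes include genes without a cluster, since 11457 of 21951 had one in E14, beside 56 of the 57 members. CCGGAAG and CTTCCGG can overlap, as they do in Snrpe below, and such a promoter was counted once. A match describes letters, and no binding was measured.

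Examples with CCGGAAG close to the dominant TSS are printed in the same way, with the motif and the TSS in capitals. They are Prpf3, a tri-snRNP subunit, at chr3:95855772-95855826 (minus strand), Sf3a2, an SF3a subunit, at chr10:80798639-80798693 (plus), Sf3b6, the branch site protein of SF3b, at chr12:4817521-4817575 (plus) and Snrpe, an Sm ring protein, at chr1:133610236-133610290 (minus).
Prpf3: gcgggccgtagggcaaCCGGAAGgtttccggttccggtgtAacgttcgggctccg
Sf3a2: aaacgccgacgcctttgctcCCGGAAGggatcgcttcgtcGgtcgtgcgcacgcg
Sf3b6: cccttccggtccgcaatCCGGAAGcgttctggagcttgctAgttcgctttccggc
Snrpe: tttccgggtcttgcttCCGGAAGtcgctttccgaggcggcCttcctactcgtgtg

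The motif began 24 bases before the TSS in Prpf3 and Snrpe, 23 in Sf3b6 and 20 in Sf3a2. These clusters, of which those of Prpf3 and Sf3b6 were not the main ones, were 22 bp (Prpf3 and Sf3b6), 48 bp (Snrpe) and 59 bp (Sf3a2) wide in E14.

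There were 5 genes with clusters but none within 500 bp of the annotated gene start, namely Prpf6, Lsm14a, Snrpc, Snrpa1 and Sf3b5. In E14, 51 of the 56 members with a cluster had one at the gene start, beside 9863 of 11457 protein-coding genes. Lacking one was thus not more common among the members. In Prpf6, a tri-snRNP bridging protein, the widest cluster (50 bp) lay 9520 bp from the gene start and 69 bp from the nearest RefSeq start. In Lsm14a, a P-body protein, it was 56 bp wide and lay 3688 bp from the gene start and 78 bp from a RefSeq start. In Snrpc, a U1 snRNP protein, it was 22 bp wide, 1965 bp from the gene start and 28 bp from a RefSeq start. In Snrpa1, a U2 snRNP protein, it was 26 bp wide, with distances of 1536 and 203 bp. The widest and only cluster of Sf3b5, a small SF3b subunit, was 55 bp wide and lay 3139 bp into the 5′ UTR of its single annotated transcript, so it was counted as exonic.

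Alternative starts were found in 12 of 56 members (21.4%, 12.7% to 33.8%), beside 23.4% of protein-coding genes with a cluster. Srsf11 had 5 such clusters, Lsm14a, Srsf1 and Srsf5 had 4 each, and Snrpa had 2. Lsm14a, Prpf6, Snrpc and Snrpa1 are among the 12 although they had no gene-start cluster. Their widest cluster, described above, was thus counted as an alternative start. Of the 26 clusters, 6 were nearest to the start of a protein-coding transcript, 15 to a retained-intron transcript, 4 to a transcript annotated as nonsense-mediated decay and 1 to a processed transcript. Of the 13 in Srsf genes, the nearest start was that of a retained-intron transcript for 11 and of a nonsense-mediated decay transcript for 2. No such split is given over all protein-coding genes, so it cannot be read as particular to the members. The nearest start is not the only one, since the Srsf11 cluster 4891 bp from the gene start also lay at position 19 of exon 1 of a protein-coding transcript.

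These clusters were of very unequal width. A second broad start lay in Srsf11, 4891 bp from the gene start, with a width of 83 bp in E14 and 91 bp in both clones, and another in Srsf5 at 797 bp (49, 49 and 55 bp). By contrast, both clusters in coding exon 2 of Srsf1, at 1179 and 1228 bp, were 2 bp wide in every line. They lay 15 bp before and 12 bp after the starts of annotated nonsense-mediated decay transcripts. In all, 10 of the 26 alternative-start clusters were 1 or 2 bp wide (38.5%, 22.4% to 57.5%), beside 16.1% of the 4740 in protein-coding genes and 5 of the 73 gene-start clusters of the members.

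Exonic clusters were found in 19 of 56 members (33.9%, 22.9% to 47.0%), beside 14% of protein-coding genes with a cluster. Of the 10 Srsf genes with a cluster, 7 had one (70.0%, 39.7% to 89.2%), as did 7 of 13 Prpf genes, 3 of 9 Sf3 genes, 1 of 11 Snrp genes and 1 of 13 Lsm genes. Without the Srsf genes the count was 12 of 46 (26.1%, 15.6% to 40.3%). Of the 20 hnRNP genes, which encode splicing regulators of another type, 16 had an exonic cluster, as did 10 of 46 proteasome genes with a cluster. Of 62 other spliceosome and related genes, 18 had one (29.0%, 19.2% to 41.3%). Exonic clusters can only be called in transcribed genes, and how far the shares follow expression was not tested.

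A few genes held most of them. The 7 genes with at least 4 exonic clusters held 39 of the 59 (66.1%), namely Prpf38b with 8, Prpf4b and Srsf5 with 6, Srsf3, Srsf10 and Srsf11 with 5 and Lsm12 with 4. Over protein-coding genes, 1604 genes held 4077 exonic clusters in E14. How far those gather in few genes is not given, so the gathering cannot be called particular to the members. Prpf8 had 3, and Prpf39, Sf3b3, Srsf1 and Srsf6 had 2. Of the 59, 35 lay in coding sequence (59.3%, 46.6% to 70.9%), 12 in 3′ UTRs, 11 in exons of noncoding transcripts and 1 in the 5′ UTR of Sf3b5. Those in noncoding transcripts were in Srsf genes in 11 of 11 cases. Exonic clusters had a median width of 6 bp, beside 30 bp for the gene-start clusters of the members, and 23 of the 59 were 1 or 2 bp wide (39.0%, 27.6% to 51.7%). Over the exonic clusters of protein-coding genes the median width was 3 bp and 44.5% were 1 or 2 bp wide. Of the 4077, 2778 lay in coding sequence and 994 in 3′ UTRs. No share in noncoding transcripts is given over protein-coding genes, so that of the Srsf genes cannot be called particular to them.

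**Figure D3:**
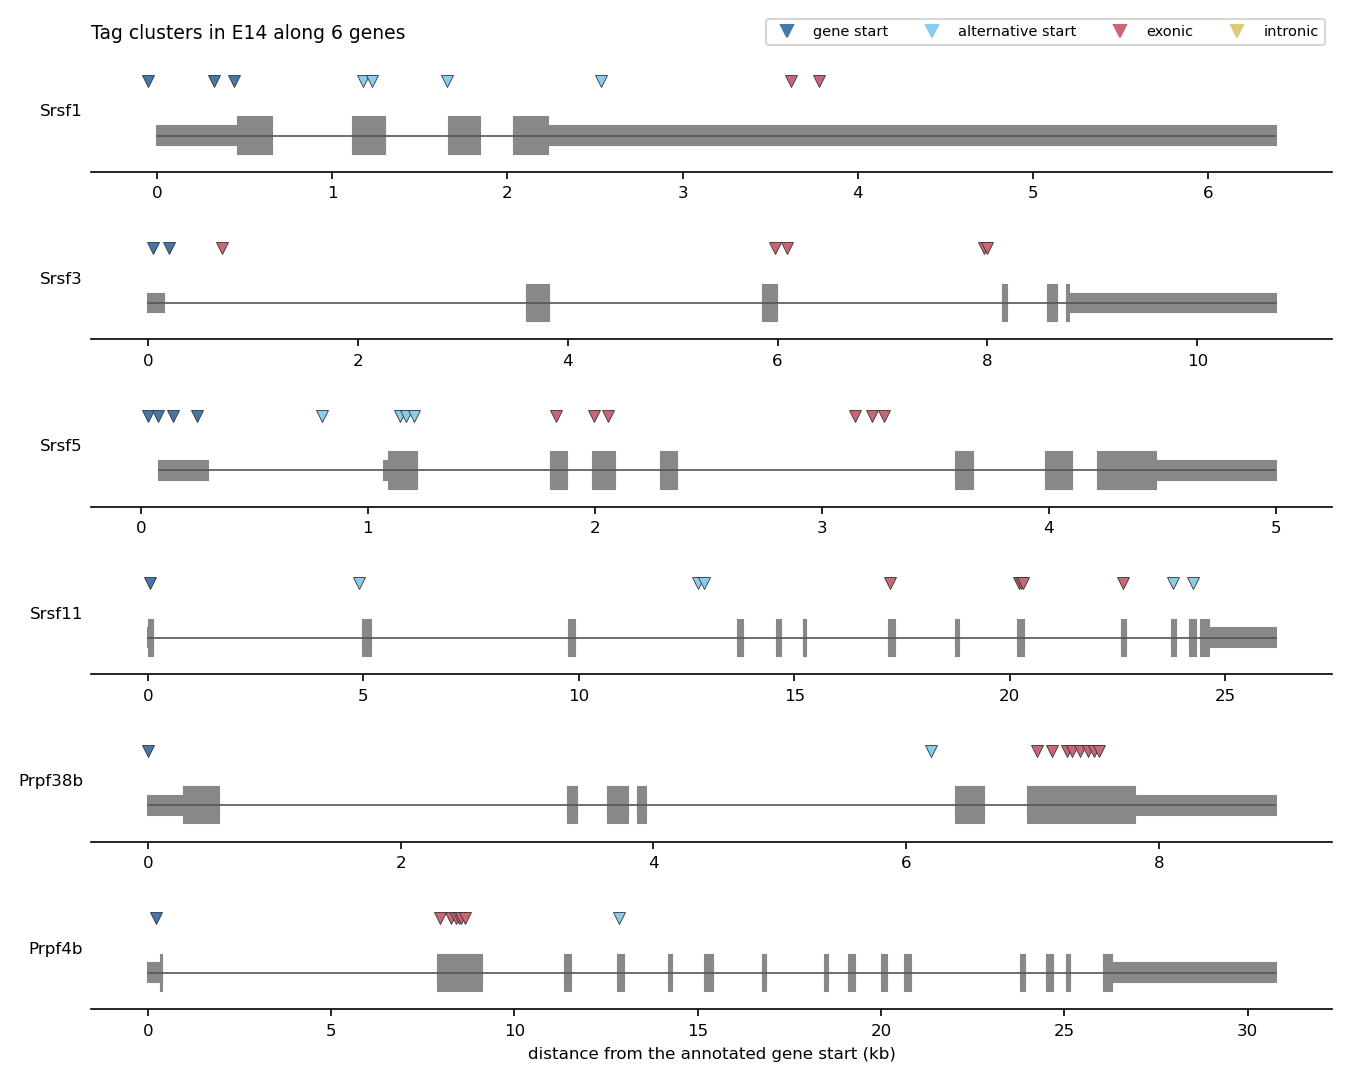
Triangles mark the dominant TSS of each tag cluster in E14 along 6 genes, by distance from the annotated gene start (kb), with the exons of 1 protein-coding transcript as boxes (taller where coding). The exonic clusters of Prpf38b and Prpf4b crowd into 1 long coding exon each. Those of Srsf3 and Srsf5 lie in coding exons and in exons of retained-intron transcripts, those of Srsf11 in coding exons and those of Srsf1 in the 3′ UTR.

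In Prpf38b, a relative of the spliceosome activation factor PRPF38A on the minus strand of chromosome 3, the 8 clusters lay in exon 6 of 6, in coding sequence, between positions 72 and 561 of an exon of 1956 bp. Their widths in E14 were 22, 1, 49, 30, 39, 2, 16 and 7 bp from the first to the last. In Prpf4b, all 6 lay in the coding exon 2 of 15, between positions 54 and 727 of 1197 bp, with widths of 51, 24, 36, 7, 3 and 8 bp. The single gene-start cluster of Prpf38b was 30 bp wide, and 3 of the clusters in its last exon were as wide or wider. In Prpf8, the core of the U5 snRNP, the 3 clusters lay in coding exons 4, 5 and 17 of 42, and each was 2 bp wide in E14.

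In the Srsf genes, clusters lay both in coding exons and in exons annotated only in noncoding transcripts. Srsf5 had 3 in coding exons 3 and 4 of 8 and 3 within 128 bp of each other in a 1673 bp exon of a retained-intron transcript. In Srsf3, 1 lay in coding exon 3, 3 in a 2804 bp exon of a retained-intron transcript and 1 in another such transcript near the gene start. Both exonic clusters of Srsf6 were 2 bp wide and lay in the exon of a retained-intron transcript. In Srsf11, 3 of 5 lay within 82 bp in coding exon 9 of 13. Srsf1 had 2 in its 3′ UTR, Srsf9 had 1 in its 3′ UTR, and the 5 of Srsf10 were split among coding, 3′ UTR and noncoding exons. Srsf2 and Srsf4 had none, and Srsf7 had none in E14 or A1. Outside these genes, the 4 exonic clusters of Lsm12 lay in its last exon, in the 3′ UTR, within 444 bp. Of the 9 intronic clusters, 6 were 1 or 2 bp wide (66.7%, 35.4% to 87.9%), beside 47.8% of those of protein-coding genes. Srsf4 and Srsf10 had 2 each, and Sf3b1, Sf3b3 and Snrpd3 had 1 each.

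The bases at exonic starts differed from those at gene starts. Of 71 gene-start clusters of the members with sequence, 58 (81.7%) had a pyrimidine before and a purine at the dominant TSS, the usual initiator step, and 6 (8.45%) had a guanine before it. Of 57 exonic clusters with sequence, 2 (3.51%) had that step and 44 (77.2%, 64.8% to 86.2%) had a guanine before the TSS. At the second base before the TSS the guanine share was 89.5%. Over protein-coding genes the initiator step was at 80.3% of gene-start and 9.16% of exonic clusters, a guanine came before the TSS at 9.11% of gene-start clusters, and 83.1% of exonic clusters had a guanine at the second base before it. Over the exonic clusters of protein-coding genes the share with a guanine just before the TSS was 73.3%, which lay inside the interval of the members. That interval treats clusters as independent, although several share an exon, so it is likely too narrow. The alternative starts lay between, with a guanine before the TSS in 12 of 23 (52.2%, 33.0% to 70.8%), and in 29.5% of those of protein-coding genes.

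All windows below are of exonic clusters in coding sequence that have a guanine before the TSS. Other clusters of the same exons lack it, such as that of Prpf38b at 7438 bp, which has a thymine there. Each window runs from 15 bases before to 14 after the dominant TSS of E14, from GENCODE release M21 transcripts on mm10. The base before the TSS and the TSS itself are in capitals. The coordinates are chr3:108904442-108904471 and chr3:108904343-108904372 for Prpf38b (minus strand), chr13:34883269-34883298 and chr13:34883838-34883867 for Prpf4b (plus), chr3:158016330-158016359 for Srsf11 (minus), chr17:29038590-29038619 for Srsf3 (plus), chr8:110815946-110815975 for Sf3b3, an SF3b subunit (minus), and chr11:75494490-75494519 for Prpf8 (plus).
Prpf38b at 7271 bp: agaaaatgagagggGTcgaagacgagaccg
Prpf38b at 7370 bp: gcagagaagtagggGTgatggagaagagaa
Prpf4b at 7982 bp: aagaaaatggagagGTatcagaagaccaat
Prpf4b at 8551 bp: aagtccaaggagagGAgaaaatccaaaagc
Srsf11 at 20295 bp: gagaggggtagaagGTcaaggagcacatcc
Srsf3 at 5977 bp: gattaccgcaggagGAgtcctccacctcgg
Sf3b3 at 30827 bp: atctgtggcaggggGCtttgtgtatacgta
Prpf8 at 7689 bp: acaacccccatgagGCtttgtcccgcatca

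Purine content varied between these stretches. Over the 50 bases around the dominant TSS, the purine share was between 76.0% and 82.0% at 6 of the 8 exonic clusters of Prpf38b, and 58.0% and 60.0% at the other 2. At the 6 clusters of Prpf4b it ranged from 58.0% to 80.0%. Over all 35 member clusters in coding sequence the median was 64.0%, with 13 at 70% or more (37.1%), beside a median of 60.0% and 21.5% at 70% or more over 2777 such clusters of protein-coding genes. The 13 included 6 in Prpf38b, 3 in Prpf4b and 1 each in Prpf6 and Srsf11, and clusters of the same exon share sequence context.

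**Figure D4:**
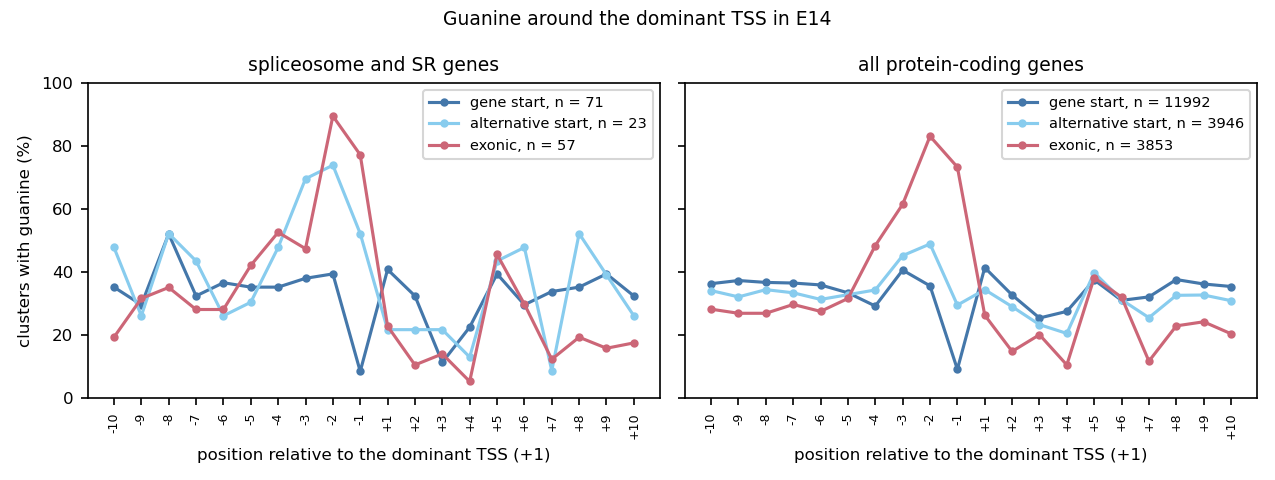
Lines give the share of clusters (%) with a guanine at each position relative to the dominant TSS (+1) in E14, for gene-start, alternative-start and exonic clusters of the spliceosome and SR genes (left) and of all protein-coding genes (right). Exonic clusters peak at the bases just before the TSS (77.2% at -1 in the members), where gene-start clusters dip (8.45%).

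Between the lines, the set of clusters was almost the same. Of the 167 member clusters of E14, 167 were overlapped by a cluster in both clones (100%, 97.8% to 100%), and over protein-coding genes the share was 99.1%. Start and end were the same in all 3 lines at 165 of the 167, and at 24604 of 24916 sites of protein-coding genes. Whether these bounds were drawn jointly over the lines was not tested. The overlap, and the like counts below, therefore cannot be read as agreement of clusters drawn separately. Merging the lines gave 171 sites, 1 of which (0.585%) was in both clones and not in E14, beside 0.338% of the sites of protein-coding genes. Of the 167, 0 were in E14 and neither clone (0%, up to 2.25%), beside 0.179% over protein-coding genes. The site in both clones lay in Lsm4, a subunit of the ring on U6 snRNA, 503 bp from the gene start at base 70673751 of chromosome 8. The others were in 1 clone each, in coding exon 6 of Prpf38b in A1, and in Srsf7 (coding exon 5 of 8) and Sf3b2, an SF3b subunit, in C7. Each of these 4 sites was 1 bp wide. Of the 514 sites of protein-coding genes that lacked a line, 61.9% were 1 bp wide.

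The lines E14, A1 and C7 had 19, 19 and 20 member genes with an exonic cluster, and 59, 60 and 60 exonic clusters. The count thus differed by 1 between E14 and either clone, and with 1 merged set per line no replicate error can be put on it. Higher or lower use of the same clusters in the DKO clones cannot be read from positions.

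The dominant TSS moved within some shared clusters. It was the same base in all 3 lines in 119 of 167 sites (71.3%, 64.0% to 77.6%), beside 67.4% over protein-coding genes. In 11 (6.59%, 3.72% to 11.4%) it had moved to the same other base in both clones, beside 8.04% of protein-coding sites. In 21 it differed in A1 alone, in 12 in C7 alone, and in 4 each line had its own base. Over the 24916 sites of protein-coding genes in all 3 lines, 3067 differed in A1 alone, 2370 in C7 alone and 2003 alike in both clones.

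Among main promoter clusters, the same other base in both clones was found in Lsm1, Lsm12 and Snrpe. In Lsm1, which acts in mRNA decay in the cytoplasm, the dominant TSS was 25785566 in E14 and 25785559 in both clones, 7 bp upstream. In Lsm12 it was 102185258 in E14 and 102185230 in both clones, 28 bp downstream on the minus strand. In Snrpe it was 133610250 in E14 and 133610265 in both clones, 15 bp upstream on the minus strand. Gene-start clusters that were not the main ones in E14 also had their dominant TSS 15 bp upstream in both clones in 2 genes. These were Prpf19, the ubiquitin ligase of the spliceosome (cluster at 181 bp), and Sf3a2 (cluster at 140 bp). In Srsf genes, the same other base in both clones was found in an alternative start of Srsf11 (4 bp upstream) and the 3′ UTR cluster of Srsf9 (9 bp downstream). The largest difference, 34 bp, was in Srsf10 and in C7 alone. The main dominant TSS also differed in C7 alone in Snrpb2, a U2 snRNP protein (29 bp), Lsm6 (24 bp) and Lsm3 (11 bp), and in A1 alone in Prpf4, a tri-snRNP subunit (5 bp), and Snrpf (2 bp).

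**Figure D5:**
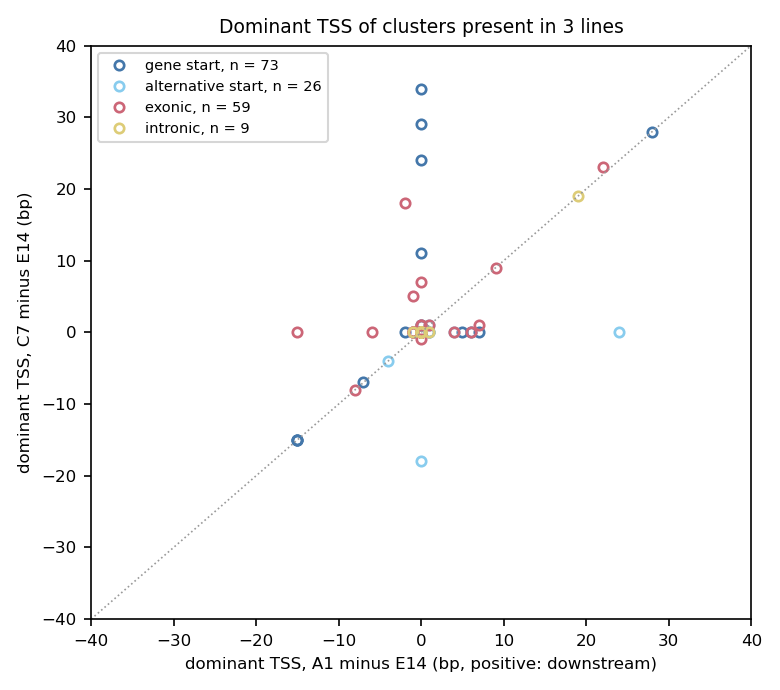
Each circle is a cluster present in all 3 lines, with the dominant TSS of A1 minus E14 on the x axis and of C7 minus E14 on the y axis (bp, positive downstream). Most circles lie at 0 (119 of 167), 11 lie on the dotted diagonal away from 0, and the others differ between the clones.

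Interquantile widths were equal in the 3 lines at 102 of the 167 sites, and at 14106 of 24916 sites of protein-coding genes. They were wider in both clones than in E14 at 28 sites (16.8%, 11.9% to 23.2%), beside 13.5% over protein-coding genes, and narrower in both at 5 (2.99%, 1.29% to 6.82%), beside 4.33%. Any difference counted, even 1 bp, as in Lsm8 (52 bp in E14 and 53 bp in both clones). The gains named below are among the larger. Of the 28, 14 were in Prpf genes, 6 in Srsf, 3 each in Snrp and Lsm and 2 in Sf3. Prpf31, a tri-snRNP protein, went from 31 bp in E14 to 39 bp in A1 and 40 bp in C7, and Prpf18, which acts in the second step of splicing, from 60 to 69 and 68 bp. An exonic cluster of Srsf11, in coding exon 10, went from 6 bp to 21 bp in both clones, and an intronic cluster of Srsf10 from 7 bp to 26 bp in both. Among the narrower, the widest cluster of Lsm14a went from 56 bp to 38 bp in A1 and 31 bp in C7. The main cluster of Lsm3 went from 30 bp to 22 and 23 bp. In Snrpf, an Sm ring protein, the gene-start cluster at 142 bp went from 19 bp to 2 bp in both. The interquantile region depends on how many tags a cluster holds, which was not known for any line, and its part in these widths was not tested.

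Beyond the named families, 62 other spliceosome and related genes were listed by hand. They include further tri-snRNP, exon junction and step-specific factors, and also SMN and Gemin genes of snRNP assembly and the Srpk and Clk kinases. They held 191 clusters in E14 (3.08 per gene), of which 116 were at promoters, 63 exonic and 12 intronic. Their median main cluster was 33 bp wide, with 1 of 57 at 10 bp or less. Their dominant TSS was the same in all 3 lines at 68.3% of sites, and no site was in both clones and not E14.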

How the data were processed

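Nuclear RNA of 3 E14, 2 A1 and 3 C7 libraries was profiled by CAGE-seq. The authors mapped reads to mm10 with STAR (2.4.2a), pooled biological replicates by line, and used CAGEr to group tags into clusters. SAMtools (1.3) and bedtools (2.17.0) are named in the submitters' processing notes. The deposited clusters give a start, an end, a dominant TSS and the interquantile region (0.1 to 0.9) in bp, and the deposited score is 0 throughout. The tag count of each cluster is unknown, and the depth of the libraries is not used here.

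Clusters were assigned by dominant TSS and strand to genes of GENCODE release M21 (500 bp before the start to the end) and called promoter (within 500 bp of any annotated transcript start), exonic or intronic, in that order. Clusters of different lines matched when they shared 1 bp and the strand. Intervals on shares are 95% Wilson intervals (counting error only), and no p-value was calculated. Bases came from RefSeq promoters (250 bases before to 50 after a start) or GENCODE transcripts. An exonic cluster was used for base shares when 10 bases before its TSS lay in the exon. Simulated clusters of known place gave 600 of 600 categories and 600 of 600 interquantile regions. They were made with the same annotation, 500 bp rule and cluster layout, so this checks the code and not the choice of rule or layout. Python 3.11.15, SciPy 1.17.1 and Matplotlib 3.10.9 were used.

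The members and lists were chosen with earlier results of these data known. Genes named by rule were all Srsf genes, the 10 with most exonic clusters, the 5 widest and 5 narrowest main clusters, the 5 with most alternative starts, and those with a cluster in both clones and not E14 or in E14 alone, or with another main dominant TSS in both clones. Other genes were named after their values were seen. The results of 1 member by itself are not reported here, though counts and medians over the members include it. Alternatives were the promoter window, protein-coding starts only, a minimum width of 3 bp, whole-cluster assignment, clusters in another gene left out, the overlap rule and each clone alone.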

Additional observations from a re-analysis of the deposited data

How the results depend on the processing

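Of 126 values recomputed under other settings, 106 stayed near the main value (a count within 1.5 times, a share inside its 95% interval) and 20 moved further. With a minimum interquantile width of 3 bp, exonic clusters fell to 36 in E14 and A1 and 35 in C7, intronic clusters to 3 in each line and alternative starts to 16 in E14 and 18 in C7, since 1 and 2 bp clusters were left out. Alternative starts numbered 15 in E14 and A1 and 16 in C7 with a promoter window of 100 bp, and 10, 11 and 11 with starts of protein-coding transcripts only. With the 3 bp minimum, 2 member clusters were in both clones and not E14, 1 was in E14 and neither clone, and 97.6% of E14 clusters were overlapped in both clones. Clone A1 alone gave 2 clusters absent from E14 and C7 alone gave 3. The dominant TSS agreed within 2 bp in 83.2% of shared sites. No paired analysis was possible because the replicates of each line were merged, and for that reason no replicate could be left out. Clusters without tag counts limit every comparison to presence, position and width.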
